A study of Oryza sativa with 6 samples.

Results

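A set of 822 H3K9me1 peaks of rice leaves lay on an H3K9me3 peak and clear of histone acetylation and H3K27me3. They made up 16.4% of the 5002 H3K9me1 peaks (95% Wilson interval 15.4 to 17.5) and are named the members here. They were chosen by measured overlaps: a member shared 1 bp or more with an H3K9me3 peak and met no peak of H3K4ac, H3K9ac, H3K27ac or H3K27me3. Every one of the 822 met exactly 1 H3K9me3 peak, which is named its host, and there were 783 hosts among 2959 H3K9me3 peaks.

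The study mapped 6 modifications of histone H3 by chromatin immunoprecipitation and sequencing (ChIP-seq), each with its own commercial antibody. The material was leaves of 2-week-old greenhouse seedlings of the japonica cultivar Nipponbare, with no treatment and no mutant, and each modification had 1 library. What was deposited for each is a list of peaks, stretches where reads piled up, with a width and a score from the peak caller MACS 1.4. The 6 lists hold 82347 peaks on 12 chromosomes, and the read depth behind them is unknown.

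Histone tails carry chemical marks that sort the genome into active and silent chromatin. In plants, methylation of lysine 9 of histone H3 is best known from heterochromatin, where transposons and repeats are kept silent, although the trimethylated form is also found in euchromatin in Arabidopsis. The mono- and trimethylated forms are recognised by separate antibodies. Acetylation of lysines 4, 9 and 27 accompanies active promoters, whereas H3K27me3 is laid down by Polycomb complexes on genes that are kept off. The members are therefore places where the mono- and trimethylated forms of lysine 9 were both found without an active mark or the Polycomb mark on the same peak.

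The remaining H3K9me1 peaks fell into 3 classes that serve for comparison. The largest held 3446 peaks (68.9%) that met none of the other 5 marks. A further 547 peaks (10.9%) lay away from H3K9me3 and met acetylation or H3K27me3. The smallest class, 187 peaks (3.74%), lay on H3K9me3 but also met acetylation or H3K27me3, most often H3K4ac (69.5% of them). Intervals given below are 95% Wilson intervals for shares and 95% order-statistic intervals for medians. They cover counting error only, because neighbouring peaks of 1 library are not replicates, and no difference below was tested.

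Some members were included or left out by a few base pairs. The shortest stretch shared with H3K9me3 was 15 bp, in the member at chromosome 8, 23525677 to 23526264 (score 71.69). The next were 212 bp at chromosome 3, 30293251 to 30293810, and 289 bp at chromosome 3, 9145831 to 9146119. Just outside, an H3K9me1 peak on chromosome 1 at 32981227 to 32981640 (score 68.12) stopped 8 bp short of an H3K9me3 peak, and the next left-out peaks stopped 91 and 111 bp short. Such near misses were few: 16 of the 3446 peaks with no other mark lay within 500 bp of H3K9me3. On the side of the barred marks, the closest members stayed 1, 2 and 8 bp clear of acetylation or H3K27me3, while the closest peaks left out shared 20, 25 and 30 bp with one. That border was more crowded, with 124 of the 822 members within 500 bp of a barred mark and 265 within 1 kb. Positions throughout are as the lists give them, counted from 1, and the lists name no genome build. The study took its genes from a TIGR release of the japonica rice genome, but no genome or annotation of that release was used here, so no gene or sequence is placed under a peak.

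The members were slightly wider than H3K9me1 peaks as a whole and much narrower than their hosts. Their median width was 709.5 bp (interval 694 to 735), with quartiles of 590 and 884 bp and extremes of 289 and 3086 bp. The median was 672 bp (666 to 680) in the whole H3K9me1 list and 652 bp (644 to 662) in the H3K9me1 peaks with no other mark. The 187 peaks on H3K9me3 that also met another mark were wider, at 916 bp (832 to 1018). The 547 peaks away from H3K9me3 that met another mark had a median of 719 bp (692 to 755). A wider peak meets another list more easily, so choosing peaks by overlap can itself favour width, which was not tested. All members together covered 0.630 Mb, and their hosts covered 2.02 Mb.

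The members also scored higher than the lone H3K9me1 peaks. Their median score was 75.2 (72.0 to 77.7), from 50.03 to 302.06, against 64.4 (63.6 to 65.2) for the peaks with no other mark, whose highest score was 278.34. Within the whole H3K9me1 list the median member stood at percentile 61.6 (57.6 to 64.8), and the median peak with no other mark at percentile 44.7 (43.0 to 46.2). The 187 peaks on H3K9me3 with another mark stood higher still, at percentile 89.7. The 547 peaks away from H3K9me3 that met another mark were level with the members. Their median score was 74.5 (70.5 to 77.3) and their median percentile 61.0 (55.4 to 64.4). A score above that of lone peaks was thus not particular to H3K9me1 peaks on H3K9me3. The quartile ranges of the members, 59.7 to 104 in score, and of the lone peaks, 56.1 to 81.2, overlapped broadly.

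The share of members grew with the H3K9me1 score. Among the 4268 H3K9me1 peaks free of acetylation and H3K27me3, ordered by score into 10 groups of equal size (deciles), 12.4% of the lowest decile were members (interval 9.62 to 15.9). The share was 14.8% in decile 5 and 23.9% in decile 9. In the highest decile, with scores from 111.77 up, it was 40.3% (35.7 to 45.0), or 172 of 427 peaks. Score and width went together among the members (Spearman's rho 0.632 across 822 peaks of 1 library), so both were split into 3 groups of equal size (terciles). In the top tercile of scores, 14.5% of the narrow peaks (16 of 110), 23.6% of those of middle width and 31.1% of the wide ones were members. In the lowest tercile of scores the shares were 13.2% for narrow, 16.0% for middle and 12.7% for wide peaks. The steep part of the rise was thus found among peaks that were both strong and wide.

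**Figure D1:**
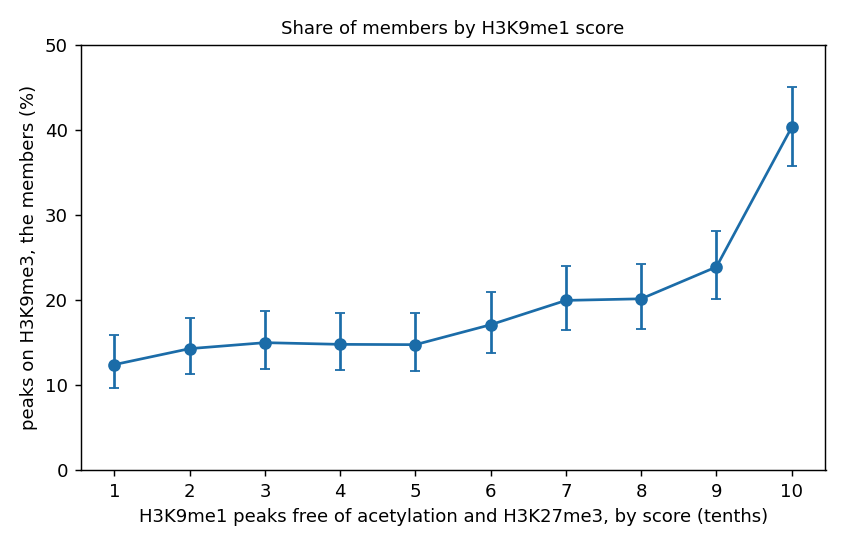
Share of members (%) among the H3K9me1 peaks free of acetylation and H3K27me3, in deciles by H3K9me1 score from low to high; points are shares and bars 95% Wilson intervals. The share stays between 12.4% and 15.0% in the 5 lowest deciles, is 23.9% in decile 9 and 40.3% in the highest.

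The 10 highest-scoring members show what the strong end looked like. The first lay on chromosome 6 at 2897004 to 2898637, a peak of 1634 bp with a score of 302.06. Its host, 2896454 to 2898807 with a score of 152.18, extended 550 bp before it and 170 bp after it, and the nearest acetylation peak was 3486 bp away. The second, also on chromosome 6 at 20166530 to 20169023, had a score of 275.34, was 2494 bp wide and filled most of a host of 3420 bp, with acetylation only 59 bp away. The third, on chromosome 3 at 30758405 to 30759689 (score 272.7), began 78 bp after the start of its host. The fourth, on chromosome 2 at 18460114 to 18462776 (score 263.98), was 2663 bp wide in a host of 3608 bp. Acetylation lay 332 bp from the third and 8789 bp from the fourth, so the strongest members differed widely in how close they came to an active mark.

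The other 6 had scores between 228.46 and 245.37. They began at 31571967 on chromosome 3, at 23160235, 17489714 and 30873912 on chromosome 4, at 23263282 on chromosome 8 and at 18832995 on chromosome 2. All 10 lay wholly inside their hosts. The hosts were not all strong: their scores ran from 62.4 to 153.17. Across the 822 members the score was only weakly related to the score of the host (rho 0.115) and went down with the width of the host (rho -0.241), which is a description of peaks that share a library.

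H3K9me1 peaks free of acetylation and H3K27me3 were much denser inside H3K9me3 peaks than around them. Per Mb of bases also free of those marks, the 818 midpoints of such peaks inside H3K9me3 came to 107. In the first kilobase outside there were 26 midpoints, or 5.39 per Mb, and between 1 and 2 kb there were 21, or 4.52 per Mb. The density was 7.67 per Mb between 2 and 5 kb, 12.1 per Mb between 5 and 10 kb and 12.5 per Mb between 10 and 50 kb. Beyond 50 kb it was 10.9 per Mb. The free bases just outside H3K9me3 thus held fewer of these peaks than free bases far from it. H3K9me1 peaks that met acetylation or H3K27me3 were not counted. The overlap itself was used to choose the members, so the height of the first value is a description.

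**Figure D2:**
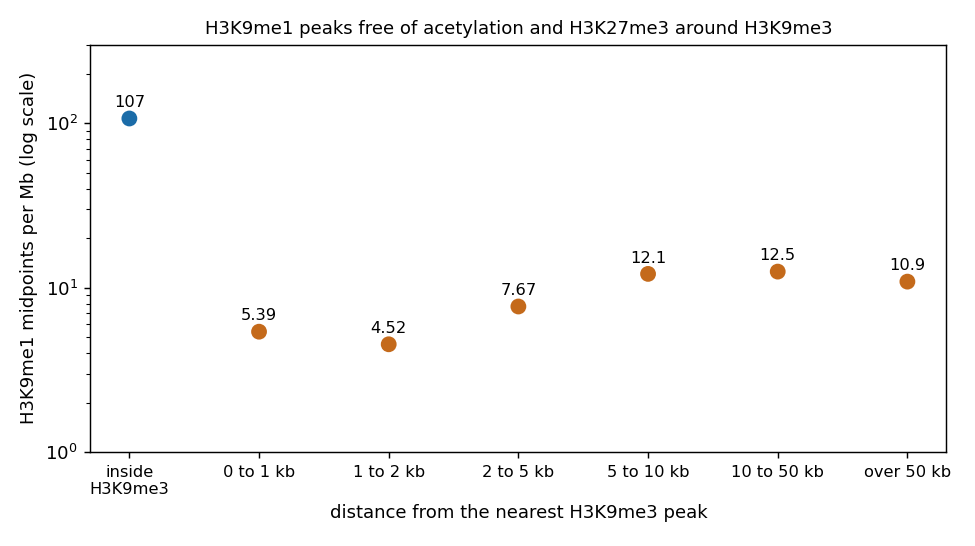
Density of midpoints of H3K9me1 peaks free of acetylation and H3K27me3 (per Mb of bases free of those marks, log axis) inside H3K9me3 peaks and at growing distance from the nearest one. The density is 107 per Mb inside, 5.39 and 4.52 per Mb in the first and second kilobase outside, and between 10.9 and 12.5 per Mb beyond 5 kb.

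Most members sat wholly within the wider H3K9me3 peak. This was so for 756 of 822 (92.0%, interval 89.9 to 93.6). Another 42 ran over the start of the host and 24 over its end, and 0 ran over both, so no member enclosed its host. Members that crossed an edge reached a median of 37 bp beyond it (1 to 616 bp). The hosts of crossing members had a median width of 1467.5 bp, against 2481 bp for the hosts of members wholly inside. Of the 187 H3K9me1 peaks that also met another mark, 162 (86.6%) lay inside the H3K9me3 peak.

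A member filled a median of 29.5% of its host (28.4 to 31.0), with quartiles of 20.6% and 43.7%. From a member wholly inside, the nearer edge of the host was a median of 356 bp away (330 to 390) and the farther edge 1222.5 bp (1158 to 1344). Host widths were only weakly related to member widths (rho 0.144). The spread of the filled share was wide, from 1.20% to 99.2%.

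The members showed little preference for the middle of the host. The midpoints of member and host were a median of 366 bp apart, or 32.9% of the way from the host's midpoint to its edge (30.5 to 35.7). With each host divided into 3 equal parts, the midpoint of the member fell in the first part in 213 cases, in the middle part in 419 (51.0%) and in the last part in 186, and 4 midpoints lay outside. A peak of some width cannot have its midpoint at the very edge and still fit inside, so the place of the 756 inside members was also measured on the room that their width left. From start to end, 5 equal parts of that room held 165, 147, 135, 173 and 136 members. The middle part had 17.9% (15.3 to 20.7) and part 4 had 22.9% (20.0 to 26.0), near the 20% that an even spread gives. Exactly 378 of the 756 lay nearer the start of the host.

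**Figure D3:**
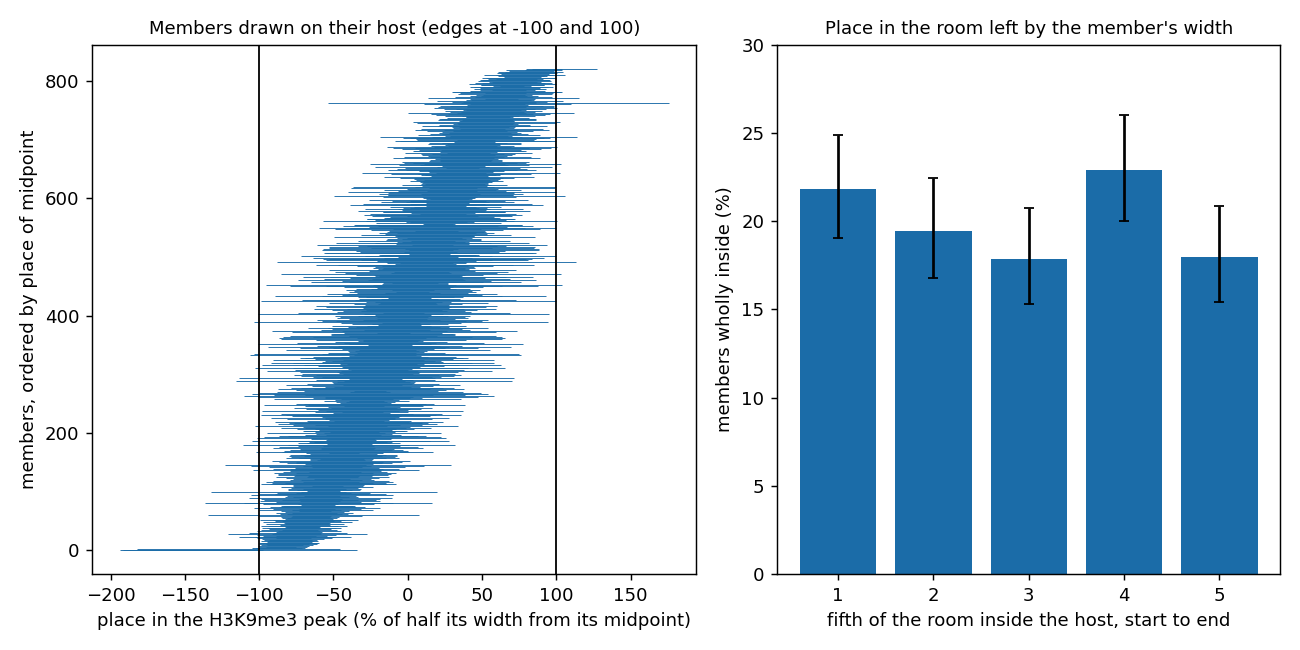
Left, each of the 822 members drawn as a line across its host, with the host's edges at -100 and 100 (% of the distance from the host's midpoint to its edge), in order of the member's midpoint. Right, share of the 756 inside members (%) in each of 5 equal parts of the room that their width leaves in the host, with 95% Wilson intervals; the shares run between 17.9% and 22.9%.

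The width of the host changed the picture somewhat. In hosts up to 1500 bp wide 75.5% of the members lay wholly inside, and in hosts of 1500 to 2500, 2500 to 3500 and over 3500 bp the shares were 93.4%, 97.6% and 96.0%. Among inside members the outer parts of the room at both ends, 2 of the 5, held 37.1%, 34.2%, 44.8% and 45.0% in the same order of host width. The middle part held 21.9%, 19.9%, 13.4% and 16.6%, with intervals that overlapped from class to class. In hosts of 2500 to 3500 bp the interval (9.40 to 18.8) lay below the share of an even spread. The intervals of the other host widths included that share.

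Strong members lay closer to the middle than weak ones. In the lowest of 4 equal groups of members by score (50.03 to 59.7) 43.2% of the midpoints fell in the middle part of 3 of the host (36.6 to 50.0). The shares in groups 2 and 3 were 45.4% and 48.3%. In the highest group (104.35 to 302.06) it was 67.0% (60.3 to 73.0). The strong members were wider, with a median of 928.5 bp, and filled 46.5% of hosts that had a median of 2032 bp, while the weakest group filled 22.1% of hosts of 2816 bp. Measured on the room left by the width, the middle 3 parts of 5 held 59.5%, 57.0%, 59.0% and 65.6% of the inside members from the lowest to the highest group. The last of these had an interval of 58.4 to 72.1, which includes the 60% of an even spread. This split by score was chosen after the placement of the strongest peaks had been seen.

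Most H3K9me3 peaks held no member and few held more than 1. Of the 2959 H3K9me3 peaks, 2176 held 0, 744 (25.1%) held 1, 39 (1.32%) held 2 and 0 held 3. The 783 hosts were 26.5% of the list (24.9 to 28.1), and 744 of them had a single member. Only 7 hosts also held an H3K9me1 peak that was not a member. The counts were similar among the 2197 H3K9me3 peaks that were themselves clear of acetylation and H3K27me3, of which 27.1% held 1 member and 1.32% held 2.

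The 39 pairs lay in wide hosts, with a median width of 3192 bp, against 2271 bp for the hosts of a single member. The gap between the members of a pair had a median of 338 bp, with quartiles of 129 and 928 bp and extremes of 4 and 2287 bp. In 13 of the 39 pairs the gap was under 200 bp, so a peak caller that joined nearby peaks would have given 1 member in place of 2. Other pairs were clearly apart.

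The widest of these hosts lay on chromosome 1 at 40373904 to 40380043 (6140 bp). Its members, at 40375000 to 40376025 and 40377415 to 40378404, had scores of 58.7 and 56.2 and were 1389 bp apart. The next, on chromosome 9 at 11381206 to 11387014, held members with scores of 64.71 and 107.55 that were 566 bp apart. On chromosome 6, the host at 5597144 to 5602438 held members with scores of 83.44 and 114.81 at a gap of 1122 bp. The largest gap of all, 2287 bp, was in the host at 11567523 to 11572647 on chromosome 11, whose members scored 56.29 and 52.18. The last of the 5, on chromosome 7 at 7303457 to 7308548, held members 436 bp apart. None of these hosts had a member among the 10 highest-scoring.

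Hosts were narrower and stronger than H3K9me3 peaks without H3K9me1. Their median width was 2341 bp (2217 to 2457), against 2702 bp (2594 to 2799) for the 2002 H3K9me3 peaks that met no H3K9me1 peak. The median host scored 64.4 (62.4 to 65.7), against 59.5 (58.9 to 60.1), and stood at percentile 59.4 of the H3K9me3 list, against 45.2. A host was also a median of 1345 bp from acetylation (1093 to 1595), against 2032.5 bp (1856 to 2231). The remaining 174 H3K9me3 peaks, which met only H3K9me1 peaks that were not members, met acetylation in 85.1% of cases, which follows from the choice of members. These 174 were stronger than the hosts, with a median score of 75.8 (70.0 to 82.4) at percentile 81.0. Their median width was 2415.5 bp (2092 to 2631). A score above that of H3K9me3 peaks without H3K9me1 was thus not particular to hosts. With them added to the hosts, the median width was 2349 bp, the median score 65.7 and the median distance to acetylation 881 bp.

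Narrow H3K9me3 peaks were hosts more often than wide ones. In deciles by width, 33.1% (28.0 to 38.7) of the narrowest H3K9me3 peaks (390 to 1339 bp) held a member, 25.3% of decile 5, and 15.5% (11.9 to 20.1) of the widest (4788 to 8168 bp). Per length, the narrowest decile held 309 members per Mb and the widest 32.1. These lengths are of the H3K9me3 peaks alone, although 1 bp of overlap was enough for a member. A wide H3K9me3 peak has more room to meet an H3K9me1 peak, and what position alone would give was not tested. The same order was found among H3K9me3 peaks clear of acetylation and H3K27me3, with 41.3% (34.9 to 48.1) in the narrowest decile and 15.7% (11.4 to 21.1) in the widest. Where members with a barred mark within 1 kb were left out, the narrowest decile had 19.9% and the widest 14.9%, so the contrast was smaller among members far from acetylation and H3K27me3. The intervals then overlapped (15.8 to 24.9 and 11.3 to 19.4).

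The share of hosts was higher among strong H3K9me3 peaks. It was between 20.9% and 24.0% in the 6 lowest deciles of the H3K9me3 score, 30.4% and 30.1% in deciles 7 and 8, and 35.5% (30.2 to 41.1) and 34.5% (29.3 to 40.0) in decile 9 and the highest. Width kept its order in each tercile of the score. Narrow, middle and wide peaks were hosts in 28.4%, 23.2% and 16.8% of cases in the lowest tercile of scores. The shares were 27.5%, 25.0% and 18.0% in the middle tercile, close to those of the lowest, and 37.9%, 33.3% and 28.2% in the highest.

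**Figure D4:**
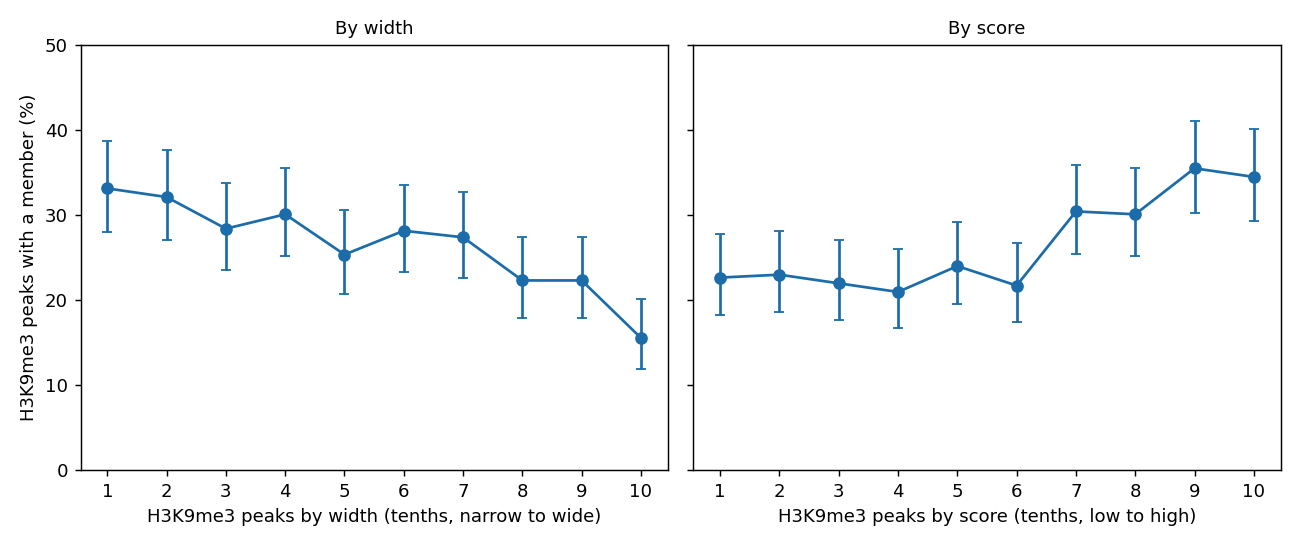
Share of H3K9me3 peaks that held a member (%), in deciles of the H3K9me3 list by width (left) and by score (right); points are shares and bars 95% Wilson intervals. By width the share is 33.1% in the narrowest and 15.5% in the widest decile, and by score it is 22.6% in the lowest and 34.5% in the highest.

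Members were barred from touching acetylation, but their hosts were not. Of the hosts, 624 (79.7%) were clear of acetylation and H3K27me3, and 16.6% (14.2 to 19.4) overlapped an acetylation peak elsewhere along their length, against 14.0% (12.6 to 15.6) of H3K9me3 peaks without H3K9me1. By mark, the shares were 14.6% against 12.2% for H3K4ac, 10.7% against 8.14% for H3K9ac and 3.70% against 2.90% for H3K27ac. For the Polycomb mark H3K27me3 the shares were 5.49% (4.10 to 7.32) of hosts and 10.1% (8.89 to 11.5) of H3K9me3 peaks without H3K9me1. The hosts' shares are lowered by the choice of members, since an H3K9me3 peak whose only H3K9me1 peak met a barred mark is no host. Over all 957 H3K9me3 peaks with any H3K9me1 peak, the share on H3K27me3 was 13.1% (11.1 to 15.3) and the share on acetylation 29.0% (26.3 to 32.0), both above those of H3K9me3 peaks without H3K9me1, so for H3K27me3 the order turned round. In the acetylated hosts, 140 members lay a median of 638 bp from the acetylation peak (1 to 3984 bp).

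Members came slightly closer to acetylation than lone H3K9me1 peaks did. The nearest acetylation peak was a median of 2270 bp from a member (quartiles 984 and 5258 bp) and 2489.5 bp from an H3K9me1 peak with no other mark (937 and 5913 bp). For members and lone peaks the medians were 2501.5 bp against 2994 bp to H3K4ac, 2646.5 bp against 3025.5 bp to H3K9ac, and 9789 bp against 11784 bp to H3K27ac. The nearest H3K27me3 peak was 10799 bp from a member and 10171.5 bp from a lone H3K9me1 peak. The ranges overlapped almost entirely, and the members were a median of 3276 bp from acetylation when barred marks counted only at a score of 100 or more. Weaker acetylation peaks were then left out of the distance too.

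Members lay on every chromosome. Chromosome 1 held the most, 109, and chromosomes 10 and 12 the fewest, 44 each. Over the 373 Mb spanned by the lists this was 2.20 members per Mb, from 1.58 on chromosome 7 and 1.60 on chromosome 12 to 2.67 on chromosome 5. H3K9me3 peaks ran from 7.13 to 8.78 per Mb, on 164 to 362 peaks per chromosome. The smaller counts of members vary more by counting error, and no interval was set on these densities.

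The share of H3K9me3 peaks that were hosts was lowest on chromosomes 12 (19.5%, 14.8 to 25.2), 7 (20.7%, 15.9 to 26.6) and 10 (21.5%, 16.2 to 27.8). It was between 25.4% and 30.5% on the other 9, with the highest value on chromosome 3 (25.3 to 36.2). The intervals of chromosomes 12 and 3 lay apart by a small margin, and those of neighbours in this order overlapped. Of the H3K9me1 peaks, 12.8% on chromosome 7 and 13.0% on chromosome 12 were members, against 19.1% on chromosome 5.

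**Figure D5:**
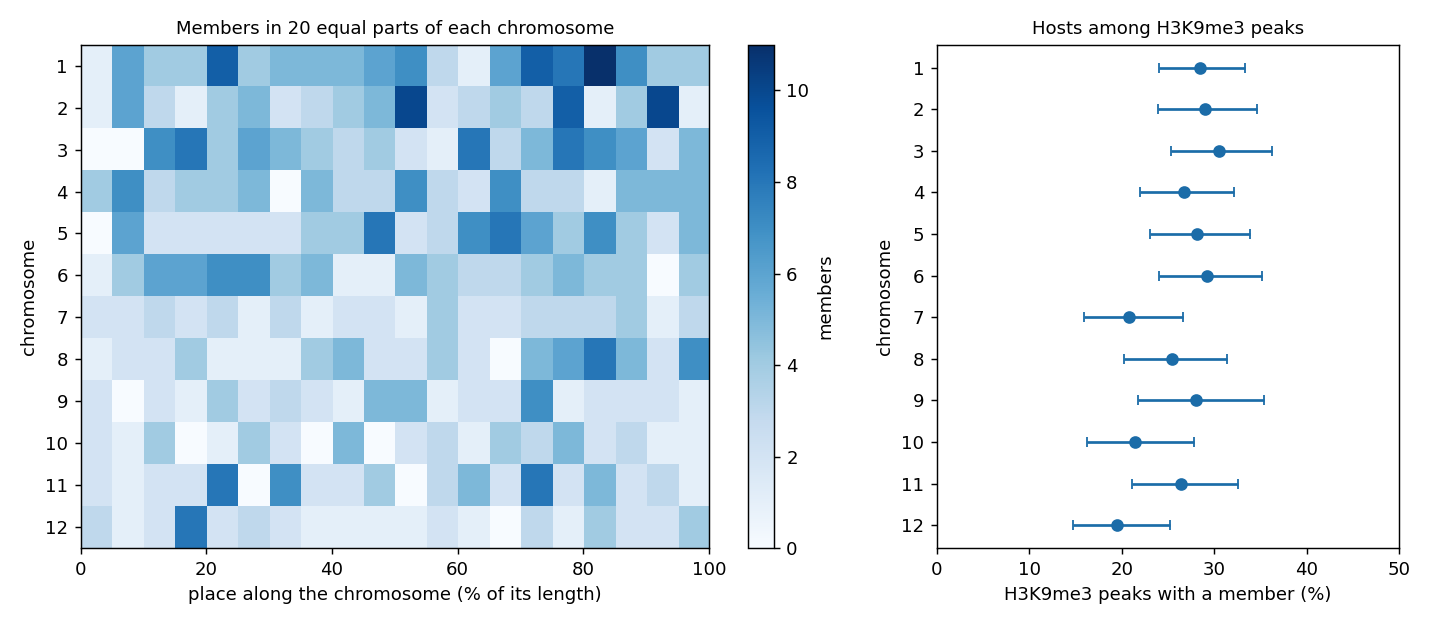
Left, number of members in 20 equal parts of each of the 12 chromosomes, from the start of the chromosome to its last peak (% of length). Right, share of H3K9me3 peaks that held a member (%) on each chromosome, with 95% Wilson intervals, from 19.5% on chromosome 12 to 30.5% on chromosome 3.

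Along the chromosomes the members were more frequent in the last part than in the first. With each chromosome divided into 10 equal parts, the 12 first parts together held 55 members, the second to the seventh held 72 to 89, the eighth held 114, the ninth 103 and the last 75. Between 22.1% and 25.9% of the H3K9me3 peaks were hosts in the 7 parts from the start, and 32.4%, 31.5% and 31.1% in the 3 parts at the end. H3K9me1 peaks with no other mark had no such excess, with 343, 328 and 324 peaks in those 3 parts and 334 to 386 in the second to the seventh. The start of a chromosome is the end from which positions are counted. Centromere positions were not used here, so the parts were not assigned to chromosome arms.

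The members were spread in small numbers over most of the genome. Of 380 bins of 1 Mb, 50 (13.2%) held none, 102 held 1, 96 held 2, and the most in any bin was 9. The last bin of each chromosome ended at its last peak and was shorter than 1 Mb, but was counted as a full bin. The richest 38 bins, 1 in 10, held 211 members (25.7%). The richest bin, 32 to 33 Mb of chromosome 2, had 9 members in 7 of its 11 H3K9me3 peaks. A pair in this bin, at 32160841 to 32161473 and 32161929 to 32162545, shared a host of 3072 bp, and another, at 32592301 to 32593073 and 32593095 to 32594245, shared a host of 2439 bp.

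The bin at 22 to 23 Mb of chromosome 3 held 8 members in 8 of 16 H3K9me3 peaks, among them 4 within the first 200 kb, from 22108995 to 22178678, of which the first had a score of 211.39. The bins at 23 to 24 Mb of chromosome 8 and at 6 to 7 Mb of chromosome 11 held 7 each, in 7 of 14 and 7 of 9 H3K9me3 peaks. That on chromosome 8 contains both the member with the shortest shared stretch and the ninth strongest, at 23263282. In the order given, the 4 bins held 88, 90, 88 and 70 peaks of the active mark H3K9ac.

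Bins with few H3K9ac peaks held fewer members. In 5 equal groups of bins ordered by the number of H3K9ac peaks, from 0 to 49 in the lowest to 93 to 119 in the highest, there were 1.51, 2.12, 2.26, 2.71 and 2.21 members per bin. Lone H3K9me1 peaks numbered 7.86, 9.84, 9.71, 8.91 and 9.03 per bin, and H3K9me3 peaks 7.28, 8.51, 8.39, 7.92 and 6.83. The shorter last bins of the chromosomes can hold fewer peaks of every kind, and their effect on these counts per bin was not tested. The share of H3K9me3 peaks that were hosts was 19.9% (16.8 to 23.4) in the lowest group, then 23.8%, 26.2% and 32.1%, and 30.6% (26.8 to 34.7) in the highest. Without the members that had a barred mark within 1 kb, it was 15.4% where H3K9ac peaks were fewest and 19.7% where they were most numerous. Those intervals overlapped (12.6 to 18.6 and 16.5 to 23.3).

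Members had another H3K9me1 peak within 50 kb in 78.2% of cases (75.3 to 80.9), against 73.6% (72.1 to 75.0) of the H3K9me1 peaks with no other mark. The median distance to it was 22630 bp for members and 25824 bp for lone peaks. The 78 members that shared a host have such a neighbour through the shared host, and without them the share was 75.9% (72.7 to 78.9) and the median 26190.5 bp, so the median was then no shorter than that of lone peaks. The next member was within 50 kb for 240 of the 822 (29.2%), at a median of 131551 bp. Without the same 78 members, this was so for 162 of 744 (21.8%), at a median of 155813 bp.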

How the data were processed

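Peak lists of 6 marks from leaves of 2-week-old Nipponbare seedlings were used, 1 library per mark and no replicates. The submitters' processing notes name Bowtie for alignment (version not given in the sources used here), and the lists name MACS 1.4. The deposited score of each peak is the value that the authors' peak caller wrote, and the lowest in the 6 lists was 50. That minimum hides weaker peaks, and the depth, any control library and the thresholds are not given in the sources used here. The study's gene annotation was TIGR rice release 7, but the build to which the ChIP-seq reads were aligned is not stated separately.

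Peaks were compared by position, with 1 bp counted as overlap. The code was tested on simulated data, and a recount with bedtools 2.31.1 also gave 822 members. Python 3.11.15, numpy 2.4.6, pandas 2.3.3, scipy 1.17.1 and matplotlib 3.10.9 were used. With 1 library per mark no test between groups was made. Lengths of chromosomes were taken from the last peak end. Distances are to the nearest peak edge. Score and width groups hold equal numbers of peaks or bins, split by rank. Named regions were the 10 highest-scoring members, the 5 widest hosts with the most members, the 3 richest 1 Mb bins with ties, and the 3 peaks nearest each side of the rule; other regions, such as the pairs in the richest bin, were named after their values were seen. The members and the comparisons were chosen with earlier results of these data known. Alternatives changed the score minimum, the overlap, the distance to barred marks, the merging of peaks and the bin size.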

Additional observations from a re-analysis of the deposited data

How the results depend on the processing

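Of 110 results recomputed under an alternative, 76 moved by less than their counting error or 1.5 times, and 34 moved further. Asking that 50% of the H3K9me1 peak be covered moved none. With H3K9me1 scores of at least 100 there were 222 members, or 25.3 per 100 H3K9me1 peaks. Their median percentile was 51.3 within the H3K9me1 list cut at that score, which is not comparable with 61.6 in the whole list. Their median width was 916 bp and their distance to acetylation 1609 bp. Of them 87.8% lay wholly inside, 66.7% in the middle part of 3, and the median midpoint lay 23.8% of the way to the edge. No host then held 2 members (0%), 9.91% of members had another within 50 kb, and the richest bins held 41.0%. Hosts made up 12.8% of the narrowest and 2.36% of the widest decile of H3K9me3 peaks, 4.16% in the group of bins with the fewest H3K9ac peaks and 11.8% in that with the most. Members were 20.6% of the lowest and 47.6% of the highest score decile, with deciles drawn only among peaks that scored at least 100. With H3K9me3 scores of at least 60 there were 500 members, or 9.996 per 100, with 7.73% and 25.1% in the lowest and the highest score decile, 29.4% in the richest bins and 23% within 50 kb of the next. With no barred mark within 1 kb there were 11.1 per 100 at a median percentile of 57.0, with 3164 bp to acetylation and 23.7% within 50 kb of the next. Hosts were then 19.9% of the narrowest decile, 15.4% in the group with the fewest H3K9ac peaks and 19.7% in that with the most. Barred marks counted only from a score of 100 gave 3276 bp to acetylation. Merging peaks closer than 200 bp left 3.32% of hosts with 2 members or more. Bins of 500 kb and 2 Mb put 32.0% and 21.2% of the members in the richest bins, 1 in 10. Fewer peaks by construction account for the lower counts. The percentile and score deciles with H3K9me1 scores of at least 100 were ranked anew in the cut list. Dropping members within 1 kb of a barred mark lengthens the distance to acetylation by construction. The 3276 bp was measured only to acetylation peaks that scored at least 100. The cause of the other moves was not tested. The changes of bin size did not recompute the shares by H3K9me3 width, H3K9me1 score or H3K9ac. In each other alternative run, narrow H3K9me3 peaks, high-scoring H3K9me1 peaks and bins rich in H3K9ac kept the higher shares. With no barred mark within 1 kb, the intervals by width overlapped (15.8 to 24.9 and 11.3 to 19.4). Those by H3K9ac did too (16.5 to 23.3 and 12.6 to 18.6). The alternatives for these 3 contrasts were chosen after seeing the data. No paired analysis was possible because each mark had 1 library, and no replicate could be left out. The lists hold no peak under a score of 50, so weaker peaks were not counted.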
